A study of Mus musculus with 2 samples.

Results

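*Chp1*, *H6pd*, *Fam134c* and *Mknk2* were low in the liver of WT mice and 31.5 to 68.4 times higher in that of miR-182-5p KO mice after partial hepatectomy (PH), the removal of most of the liver that sets off regrowth of the remaining lobes. These are 4 of the 34745 genes in the deposited table, and each symbol stands on a single row. They were chosen by the measured values themselves, from the protein-coding genes with the largest rises between the libraries, so their rise is described here and not tested. Genes with similar or larger rises that were not chosen are given below. The samples were livers of male mice, 8 to 10 weeks old, taken at day 3 after 2/3 PH and sequenced as poly(A) RNA. The KO mice were heterozygous for a knockout of miR-182-5p, a small RNA that represses mRNAs carrying a match to its seed, and they keep an intact allele. The comparison is of 1 KO library with 1 WT library, and the number of mice behind each library is not stated in the study.

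The 4 genes encode proteins of unrelated families. *Chp1* encodes a calcium-binding protein with EF hands that resembles the regulatory subunit of calcineurin. It is a cofactor of the plasma membrane sodium-hydrogen exchangers and of GPAT4, an enzyme that starts glycerolipid synthesis in the endoplasmic reticulum (ER). *H6pd* encodes hexose-6-phosphate dehydrogenase, which oxidises glucose 6-phosphate in the ER lumen and makes there the NADPH that 11β-HSD1 uses to regenerate active glucocorticoid in the liver. *Fam134c*, now named *Retreg3*, encodes a membrane-curving protein of the ER that belongs to a family of receptors for ER-phagy, the removal of ER fragments by autophagy. *Mknk2* encodes MNK2, a kinase that is activated by MAP kinases and phosphorylates the cap-binding protein eIF4E while docked on eIF4G.

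The libraries held 13247497 (KO) and 13163348 (WT) counted reads, and the 13 mitochondrially encoded genes took 51.7% and 31.0% of them. Libraries were therefore scaled by TMM, a method of edgeR that limits the weight of the most abundant genes, and a log2 fold change is the log2 ratio of scaled counts, KO over WT, with a prior count of 0.5. A gene was kept when its counts summed to 10 or more, which left 13561 genes. With a single library per genotype there is no replicate check and no test of the genotypes, so a gene was counted as changed when it passed a 2-fold difference in either direction. All intervals are 95% exact (Clopper-Pearson) intervals that cover counting error only. By this rule 1283 genes, 9.46% of those kept, were higher in the KO library and 1348 genes, 9.94%, were lower. Scaling by total counts moved the median of all genes by −0.60 on the log2 scale and left 624 genes higher and 3605 lower, so values between 0 and 0.60 below change sign with that scaling, and it is stated where a named gene does. Bulk RNA does not tell fewer cells of a type from less RNA per cell. Hepatocyte markers had a median of 0.12 (log2) across 11 genes, none past 2-fold, with summed counts of 755707 (KO) and 1120368 (WT). By total counts their median was −0.48, with 1 of the 11 past 2-fold lower. Stellate cell markers (2101 and 4177 counts, median −0.51, 2 of 12 lower past 2-fold) and Kupffer cell and macrophage markers (2104 and 4181 counts, median −0.40, 2 of 12 lower past 2-fold) were lower. The part of cell composition in the differences of the 4 genes was not tested. *Mir182* is not among the listed genes, and the labels of genotype could not be compared with its level.

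*Chp1* (ENSMUSG00000014077, chr2:119547697-119587027, plus strand) was counted 1207 times in the KO and 26 times in the WT library. In FPKM, the count scaled to transcript length and library total, its level was 14.4 in the KO and 0.311 in the WT library. The log2 fold change was 6.10 (5.57 to 6.75), the first place in a ranking of the 6218 protein-coding genes with KO counts of 100 or more and WT counts of 10 or more. The gene therefore moved from the middle of the WT ranking, place 10855 of 21556 protein-coding genes by FPKM, to place 1160 in the KO library.

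*H6pd* (ENSMUSG00000028980, chr4:149979475-150009023, minus strand) had the most reads of the 4, with 2519 counts in the KO and 57 in the WT library. Its level was 32.3 FPKM in the KO library, place 556 of the protein-coding genes, and 0.736 FPKM in the WT library, place 9081. The log2 fold change was 6.04 (5.68 to 6.46), an interval that overlapped that of *Chp1*, so the order of these 2 genes is within counting error.

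*Fam134c* (ENSMUSG00000017802, chr11:101096322-101119893, minus strand) was the least abundant of the 4 in both libraries, with 302 counts in the KO and 12 in the WT library. Its level rose from 0.132 FPKM (place 12098) in the WT to 3.31 FPKM (place 3621) in the KO library. The log2 fold change was 5.18, with the widest interval of the 4 (4.42 to 6.21) because the WT library held so few reads of the gene.

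*Mknk2* (ENSMUSG00000020190, chr10:80665327-80678112, minus strand) had 1246 counts in the KO and 59 in the WT library. Its level was 15.0 FPKM (place 1119) and 0.713 FPKM (place 9162). The log2 fold change was 4.98 (4.62 to 5.39). The intervals of *Chp1* and *H6pd* lay above that of *Mknk2*, while that of *Fam134c* overlapped all of the others.

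**Figure D1:**
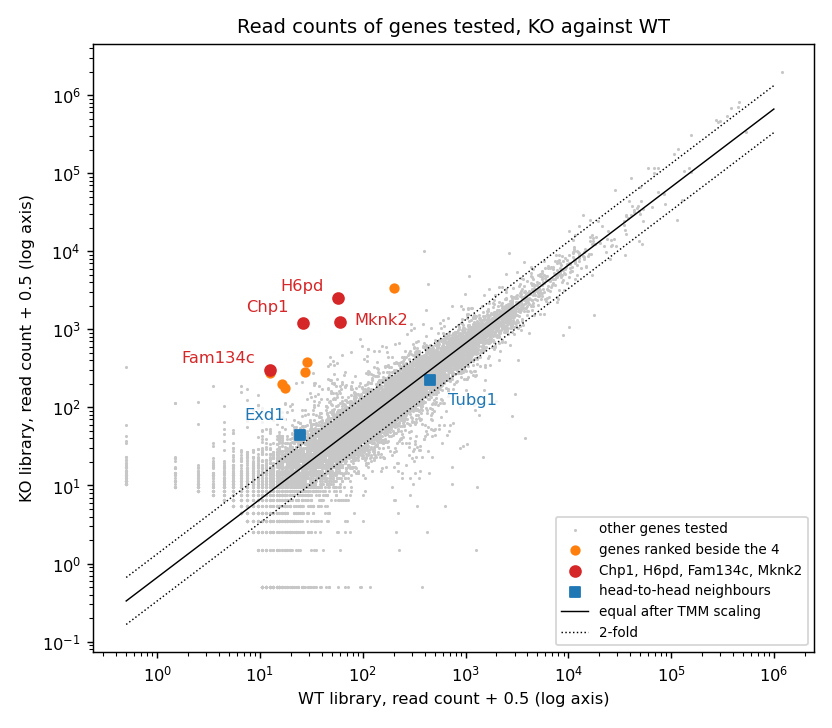
Read counts plus 0.5 of the 13561 genes kept, with the WT library on the x axis and the KO library on the y axis, both logarithmic. The solid line marks equal scaled counts and the dotted lines a 2-fold difference; the 4 genes (red) stand far above the upper dotted line at 12 to 59 WT counts, whereas of the head-to-head neighbours *Exd1* (44 and 24 counts, KO and WT) lies just above the upper dotted line and *Tubg1* (227 and 452 counts) between the lines.

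None of the 4 genes was at 0 in the WT library. By WT FPKM they stood at percentiles 43.9 to 57.9 of all protein-coding genes, a range that includes the many genes without reads, and all 4 were under the median of 1.64 FPKM of the 13731 protein-coding genes that had WT counts. In the KO library they stood at percentiles 83.2 to 97.4. They are thus low rather than absent in WT. No protein-coding gene reached 1000 KO counts with fewer than 10 WT counts. From 100 KO counts upwards, 13 genes had fewer than 10 WT counts, of which the 5 with the most KO reads all had log2 fold changes above that of *Mknk2*, with wide intervals. *Gm28046* had 330 KO and 0 WT counts, which against a floor of 3 WT counts makes it at least 7.37 on the log2 scale. *Nudcd3* was at 6.31 (189 and 3 counts, 5.00 to 8.86), *Mapk6* at 5.43 (189 and 6, 4.42 to 7.03), *Tbl1x* at 5.15 (155 and 6, 4.13 to 6.75) and *Samd8* at 5.09 (171 and 7, 4.13 to 6.54). Overlap and shared sequence with other genes were not measured for these 5 genes, *Gm28046* included. In the mirror direction, 14 genes had 100 or more WT counts and fewer than 10 KO counts.

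The 4 genes were not a closed group at the top of the ranking. *4833439L19Rik*, at 5.05 (4.29 to 6.09) from 276 KO and 12 WT reads, stood in place 4 between *Fam134c* and *Mknk2*. The gene just below *Mknk2* was *Osgin1*, a gene induced by oxidative stress, at 4.68 (4.47 to 4.90) from 3387 and 199 reads, whose interval overlapped that of *Mknk2*. *Gm20716* followed at 4.33 (380 and 28 counts), *Acox3*, a peroxisomal acyl-CoA oxidase, at 4.18 (199 and 16), *Dedd2* at 3.94 (281 and 27) and the zinc finger gene *Zfp777* at 3.91 (175 and 17). In the opposite direction, 3 protein-coding genes with at least 100 WT and 10 KO counts fell by as much as the least risen of the 4 or more.

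Overlap and shared sequence with other genes were measured on the annotation, and whether reads were assigned to the wrong gene was not tested. In GENCODE M21, which gives all 4 genes the coordinates of the deposited table, no annotated gene overlaps *Chp1*, *H6pd*, *Fam134c* or *Mknk2* on either strand. Of the 51-base words in the longest coding transcript, 0 of 4695 for *H6pd*, 0 of 3129 for *Fam134c* and 0 of 3389 for *Mknk2* occurred in transcripts of other genes. For *Chp1*, 157 of 2977 words (5.27%) occurred elsewhere, all in *Gm20056*, which is not among the listed genes. Sharing was wider among some of the genes ranked beside them. *Gm20716* shared 99.1% of its words with other genes and overlaps *Adnp* and *Dpm1*, and *4833439L19Rik* shared 12.5%, mostly with *Ptrhd1* (23 KO and 119 WT counts), so the values of these 2 genes are uncertain. *Osgin1* shared none.

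The transcript length behind the authors' FPKM, worked back from counts and totals, was 6342 bases for *Chp1*, 5886 for *H6pd*, 6884 for *Fam134c* and 6282 for *Mknk2*. The annotated exons, merged within each gene, cover 3499, 5236, 3589 and 3892 bases in the same order. The length used was thus 1.81, 1.12, 1.92 and 1.61 times the annotated one. The median of this ratio over 13731 protein-coding genes was 1.23, with a range of 0.489 to 2.19 between percentiles 5 and 95, and the 4 genes fell within that range. FPKM on the annotated lengths would be higher by these ratios in both libraries alike.

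Genes around the 4 loci moved in both directions, and none came near the rise of the 4. Over the 10 nearest genes kept at each locus, 5 on each side, 40 in all, 6 (15.0%, against 9.46% of all genes kept) were higher and 7 (17.5%, against 9.94%) lower past 2-fold, with a median log2 fold change of −0.14 against 0.00 over all genes. By total counts 2 were higher and 14 (35%) lower, where 4.60% and 26.6% of all genes were. Summed over the 10 neighbours, counts were 595 (KO) and 1327 (WT) around *Chp1*, 914 and 1612 around *H6pd*, 1034 and 1925 around *Fam134c*, and 2902 and 3596 around *Mknk2*. These raw sums were lower in the KO library at all 4 loci, and after TMM scaling the median log2 fold change of the neighbours was −0.37 around *Chp1*, −0.13 around *H6pd*, −0.21 around *Fam134c* and close to 0 around *Mknk2*.

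*Chp1* and *Fam134c* each share a start region with a gene that reads in the opposite direction. The start of *Exd1* lies 70 bases from that of *Chp1*, and *Exd1* had 44 KO and 24 WT counts, a log2 fold change of 1.44 (0.72 to 2.25; 0.85 by total counts, no longer past 2-fold). *Tubg1*, which encodes gamma-tubulin, starts 45 bases from *Fam134c* and had 227 KO and 452 WT counts, a log2 fold change of −0.40 (−0.64 to −0.17; just past 2-fold lower by total counts). Head-to-head pairs with starts within 300 bases were common: 601 pairs held 8.82% of the genes that could be placed. The median difference in log2 fold change within a pair was 0.62 in size, and 95% of the pairs differed by less than 3.07. *Fam134c* and *Tubg1* differed by 5.58, in place 4 from the top, and *Chp1* and *Exd1* by 4.65, in place 14. As *Chp1* and *Fam134c* were chosen for their high values, these places are descriptions.

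On its other side, *Chp1* is followed after 7.27 kb by the long noncoding RNA gene *1700020I14Rik*, which was lower in the KO library (69 and 467 counts, −2.16). The mitotic spindle gene *Nusap1* was also lower (31 and 177 counts, −1.91), as was *Oip5*, a centromere gene (5 and 19 counts, −1.27, −3.11 to 0.14). *Ino80*, a chromatin remodeller upstream, was at 1.08 (89 and 63 counts; 0.49 by total counts). Beyond 3′ of *Fam134c*, *Psmc3ip* lies 885 bases away and had 1 KO and 33 WT counts, with a log2 fold change whose interval ended at −1.87. *Mlx*, which encodes a partner of the carbohydrate-sensing factor ChREBP, had 64 and 300 counts (−1.63, −2.05 to −1.24). *Cntnap1*, on the other side, was higher (69 and 30 counts, 1.77), and *Hsd17b1* rested on 9 and 4 counts (1.62, −0.08 to 3.91).

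The nearest kept genes beside *H6pd* were *Spsb1* (5 and 11 counts, −0.51), 24.4 kb away, and *Gm37795* (24 and 52 counts, −0.52), 59.5 kb away. Among its other neighbours *Slc2a5*, a fructose transporter gene, was at 1.13 on 15 and 10 counts (−0.07 to 2.49; 0.55 by total counts), and *Gpr157* at −1.33 on 9 and 35 counts. *Mknk2* lies between *Mob3a* (38 and 71 counts, −0.31), 7.14 kb away, and *Btbd2* (143 and 190 counts, 0.18; −0.42 by total counts), 8.26 kb away. Farther off, *Scamp4* had 0 KO and 117 WT counts while *Adat3* had 286 and 212 (1.02; 0.42 by total counts). Both are listed over practically the same bases, so reads could have been divided between them differently in each library.

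**Figure D2:**
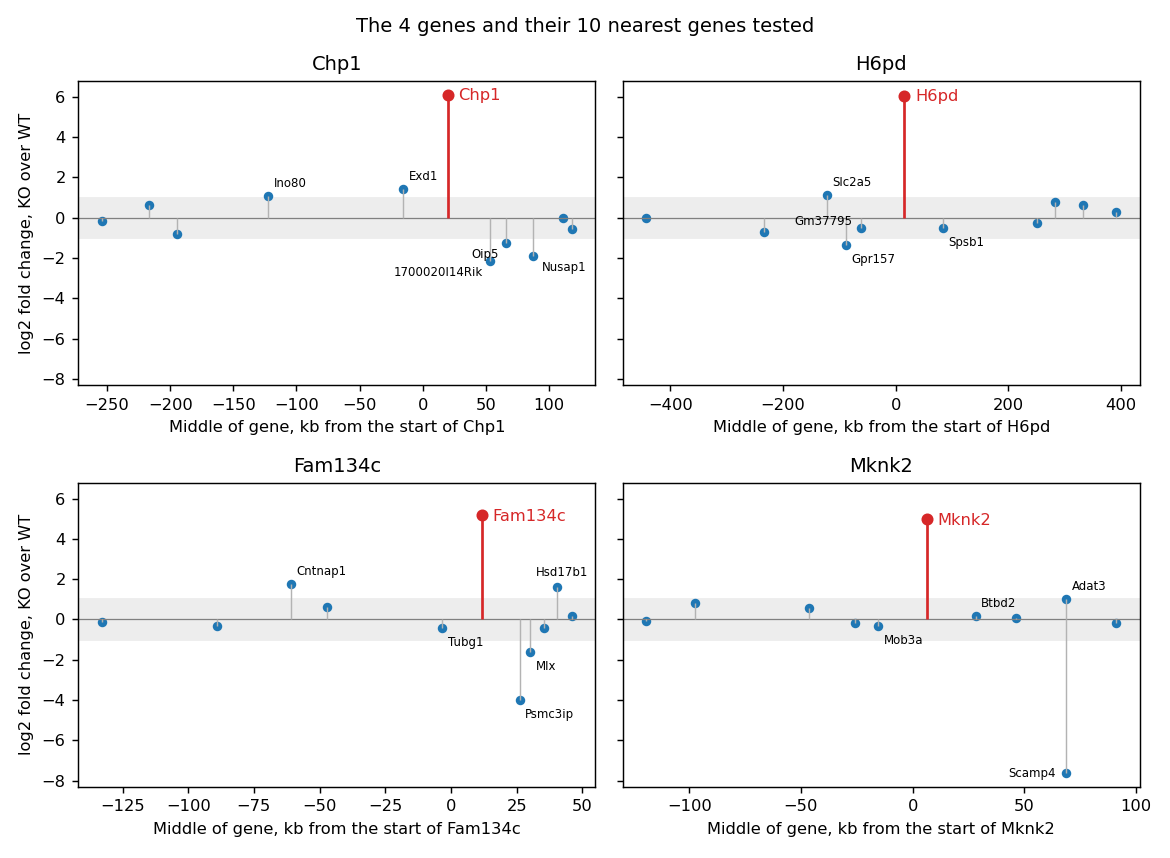
Log2 fold change, KO over WT, of each of the 4 genes (red) and its 10 nearest genes kept (blue), against the distance of the gene's middle from the start of the red gene in kb, with positive distances in its direction of transcription. Grey bands mark less than 2-fold; each red gene stands above 4.9 while the blue genes run from −7.61 to 1.77, of which the lowest, *Scamp4*, has no KO counts and its fitted value depends on the prior count.

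The promoters of the 3 genes whose RefSeq start coincides within 10 bases with the start of an annotated coding transcript are shown as the sequences around the annotated starts of genes that were chosen for their rise, and because those of *Chp1* and *Fam134c* are shared with *Exd1* and *Tubg1*. All 4 genes matched an entry of the RefSeq promoter table (GRCm38.p6), which covers 250 bases before and 50 after the start. Capitals mark every match, on either strand, to a CCAAT box (CCAAT), a GC box (GGGCGG) or a TATA box (TATAAA), among 7 motifs searched. The windows are chr2:119547457-119547756 on the plus strand for *Chp1*, chr11:101119792-101120091 on the minus strand for *Fam134c* and chr10:80676244-80676543 on the minus strand for *Mknk2*.
Chp1: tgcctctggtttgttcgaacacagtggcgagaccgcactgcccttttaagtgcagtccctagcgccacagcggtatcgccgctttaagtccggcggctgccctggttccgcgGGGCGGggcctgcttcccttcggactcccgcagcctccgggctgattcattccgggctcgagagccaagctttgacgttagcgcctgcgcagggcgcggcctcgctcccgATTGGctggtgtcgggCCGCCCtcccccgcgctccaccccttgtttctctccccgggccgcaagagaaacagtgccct
Fam134c: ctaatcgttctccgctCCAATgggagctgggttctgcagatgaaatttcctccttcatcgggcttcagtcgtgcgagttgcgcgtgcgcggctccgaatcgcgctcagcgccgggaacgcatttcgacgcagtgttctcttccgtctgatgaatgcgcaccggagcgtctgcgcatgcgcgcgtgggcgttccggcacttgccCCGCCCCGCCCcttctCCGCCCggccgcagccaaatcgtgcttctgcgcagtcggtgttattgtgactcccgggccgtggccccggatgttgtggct
Mknk2: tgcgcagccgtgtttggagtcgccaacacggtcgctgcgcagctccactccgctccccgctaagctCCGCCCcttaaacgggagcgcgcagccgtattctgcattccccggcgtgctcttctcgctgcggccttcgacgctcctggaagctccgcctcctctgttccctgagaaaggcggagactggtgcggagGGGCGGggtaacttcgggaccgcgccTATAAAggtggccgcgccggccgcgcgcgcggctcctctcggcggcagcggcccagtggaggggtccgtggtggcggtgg

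These 3 promoters were rich in CpG against all promoters compared. Promoters of the protein-coding genes kept were not compared separately. Their GC contents were 66.7% (*Chp1*), 64.0% (*Fam134c*) and 70.0% (*Mknk2*), against a median of 52.7% over 32851 promoters of the same length. The observed over expected CpG ratios were 0.911, 1.24 and 1.06, against a median of 0.384, and the ratio of *Fam134c* was at percentile 99.8. GC boxes, held by 35.7% of all promoters, occurred 2 times in *Chp1*, 3 times in *Fam134c*, where 2 of them overlap, and 2 times in *Mknk2*. A CCAAT box, held by 37.4%, occurred once in *Chp1* and once in *Fam134c*. *Mknk2* had a TATA box, held by 13.6%, beginning 30 bases before the start. The RefSeq start of *H6pd* lies 5787 bases inside the gene as listed and near no annotated coding start, and its window differed from the other 3. It had a GC content of 39.3% and a CpG ratio of 0.266, with 1 match each to a D-box (TTATGTAA, 0.938% of promoters), a CCAAT box and a nuclear receptor element (AGGTCA, 16.3%). Neither the E-box (CACGTG, 7.15%) nor the cyclic AMP response element (TGACGTCA, 1.79%) occurred in any of the 4 windows, so no single motif of those searched was common to all of them.

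The microRNA that the KO mice lack in part is shown with the matches to its seed that occur in the 4 genes. Mouse miR-182-5p (RefSeq, GRCm38.p6, chr6:30165962-30165986, minus strand) is 25 bases long as listed, with the seed (bases 2 to 8) in capitals in the first line. In the next 2 lines, capitals mark the seed match in the longest annotated 3′ UTR of *Chp1*, at bases 338 to 344, and of *H6pd*, at bases 1468 to 1474, each with its flanks.
mmu-miR-182-5p: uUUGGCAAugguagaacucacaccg
Chp1 site: ggaggagaaggTTGCCAAttatttagaaag
H6pd site: gcgggttttagTGCCAAAcgtcttttcttc

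The *Chp1* match pairs with bases 2 to 8 of the microRNA (a 7mer-m8 site), and the *H6pd* match lacks base 8 and has an A opposite base 1 (a 7mer-A1 site). *Fam134c* and *Mknk2* had no match of 7 or 8 bases, in 3′ UTRs of 1841 and 1780 bases. Neither did any of the 4 hold the full 8-base match (TTGCCAAA). Over 12494 protein-coding genes kept, with a median 3′ UTR of 1131 bases, 4.99% held the 8-base match and 19.5% a match of any of the 3 kinds. The 3′ UTRs of *Chp1* (2321 bases) and *H6pd* (2083 bases) were longer than that median. A match is a description of sequence, and repression through it was not measured here.

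Among the closest relatives of the 4 genes, *Chp2* and *Tesc* were past 2-fold on few reads, and none of those with more than 20 reads was. *Chp2*, the paralogue of *Chp1*, had 4 KO and 14 WT counts (0.181 and 0.639 FPKM; −1.14, −3.28 to 0.46). *Tesc*, a further relative, had 9 and 2 counts (0.217 and 0.0484 FPKM; 2.45, 0.49 to 6.01). *Chp1* thus made up 97.3% of the summed FPKM of the 3 genes in KO and 31.2% in WT, where *Chp2* had the highest FPKM. That WT order rests on 14 counts of *Chp2* against 26 of *Chp1*, and on the transcript lengths behind the FPKM. *G6pdx*, the cytosolic counterpart of *H6pd*, had 40 and 78 counts (0.783 and 1.54 FPKM), with a log2 fold change of −0.37 (−0.96 by total counts). In WT its level was above that of *H6pd*, and in the KO library *H6pd* made up 97.6% of the summed FPKM.

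For *Fam134c* the picture differed, because its relatives were well expressed. *Fam134a* had 247 and 353 counts (2.12 and 3.06 FPKM), a log2 fold change of 0.08 that turned to −0.52 by total counts. *Fam134b* had 245 and 436 counts (4.47 and 8.01 FPKM; −0.24). The FPKM summed over the 3 genes was 9.91 in the KO and 11.2 in the WT library, of which *Fam134c* made up 33.4% and 1.18%. These sums are scaled by total counts, which moves the median of all genes by −0.60 (log2). Their order between the libraries therefore depends on the scaling, and the shares within a library do not. *Mknk1*, the paralogue of *Mknk2*, had 168 and 157 counts (1.91 and 1.80 FPKM), at 0.69 on the log2 scale (0.37 to 1.01; 0.09 by total counts). *Mknk2* was below *Mknk1* in WT, with 28.4% of their summed FPKM, and above it in the KO library, with 88.7%.

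**Figure D3:**
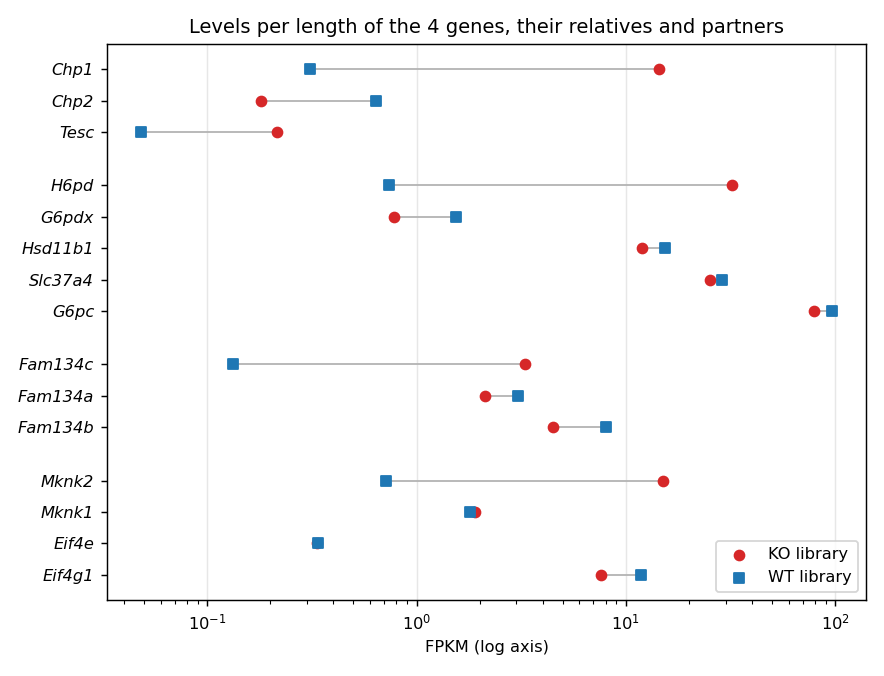
FPKM on a logarithmic axis in the KO library (red circles) and the WT library (blue squares) for the 4 genes, their paralogues and direct partners, grouped by gene, with a grey line joining the 2 libraries. The lines of *Chp1*, *H6pd*, *Fam134c* and *Mknk2* span more than a factor of 20, and among the others the widest is that of *Tesc*, on 9 and 2 counts; FPKM were scaled by total counts, so most of the other genes lie slightly lower in the KO library.

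The partners and pathways of each gene were then read against the background of 9.46% higher and 9.94% lower, or 4.60% and 26.6% by total counts. Among 15 other genes of the exchangers, calcineurin and NFAT around *Chp1*, 2 were higher and 3 lower past 2-fold, with a median log2 fold change of −0.06 (2 and 4 by total counts). The genes past 2-fold had few reads: *Tesc* and *Nfatc4* (11 and 4 counts, 1.90) were higher, and *Chp2* (−1.14), the exchanger gene *Slc9a5* (11 and 49 counts, −1.53) and the calcineurin subunit gene *Ppp3cc* (4 and 23 counts, −1.83) were lower. *Ppp3r1*, the calcineurin regulatory subunit that CHP1 resembles, had 46 and 133 counts (−0.93).

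Of 16 genes of glycerolipid synthesis, 3 were higher and 2 lower, with a median of −0.10 (1 and 4 by total counts). *Gpat4*, whose enzyme CHP1 activates, had 918 and 1133 counts (0.29, 0.16 to 0.42; −0.31 by total counts). *Lpin1*, a phosphatidate phosphatase, stood out with 348 and 52 counts, or 3.32 on the log2 scale (2.91 to 3.78). *Gpat2* was at 1.56 (40 and 20 counts; 0.97 by total counts) and *Mogat2* at 1.41 (13 and 7 counts; 0.84 by total counts). The lower ones were *Agpat9*, another acyltransferase gene (6 and 71 counts, −2.89), and *Mogat1* (0 and 14 counts).

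Around *H6pd*, the 9 other genes of the pentose phosphate pathway with enough reads held 1 higher and none lower, with a median of −0.15 (none and 2 by total counts). The higher one was *Shpk*, a sedoheptulose kinase (247 and 176 counts, 1.08; 0.48 by total counts). *Pgd*, the next dehydrogenase of the cytosolic pathway, had 326 and 885 counts (−0.85), *Tkt* 945 and 1999 (−0.49) and *Taldo1* 869 and 1681 (−0.36). In the list of the ER glucose 6-phosphate and 11β-HSD1 system, which includes the glucocorticoid receptor gene *Nr3c1*, 7 other genes had a median of 0.24. That median turned to −0.36 by total counts. *Hsd11b1*, the partner enzyme, had 996 and 1271 counts (0.24, 0.12 to 0.36; −0.36 by total counts). The transporter gene *Slc37a4* had 698 and 786 counts (0.42; −0.18 by total counts) and *G6pc*, the glucose-6-phosphatase, 2536 and 3064 (0.32; −0.28 by total counts). *Slc37a1* was past 2-fold higher at 1.25 (144 and 91 counts; 0.65 by total counts), and *Slc37a2* was lower at −1.83, on 4 and 23 counts.

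Of 14 genes known to respond to glucocorticoid, the hormone that 11β-HSD1 regenerates, none was past 2-fold higher and 1, *Fkbp5* (122 and 370 counts, −1.01), was lower, with a median of −0.21. By total counts 6 of the 14 (42.9%) were past 2-fold lower, against 26.6% of all genes. *Tsc22d3*, a classical target, had 631 and 1313 counts (−0.46). The list moved both ways, from −1.01 to 0.77. Higher within 2-fold were *Klf9* (193 and 170 counts, 0.77), *Per1* (307 and 290 counts, 0.67) and *Pck1* (15078 and 16220 counts, 0.49), among others. By total counts these 3 were at 0.17, 0.07 and −0.11. *Nr3c1*, the receptor gene, had 354 and 487 counts (0.13; −0.47 by total counts).

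Of 21 other genes for ER-phagy receptors and ER-shaping proteins, the company of *Fam134c*, 3 were higher and 3 lower, with a median of −0.20 (3 and 7 by total counts). Past 2-fold were *Atl3*, a membrane-fusing GTPase of the ER and itself an ER-phagy receptor (271 and 112 counts, 1.86, 1.54 to 2.20), and *Rtn4*, a reticulon that shapes ER tubules (34 and 261 counts, −2.33). *Reep4*, with the most reads of the 6, had 119 and 382 counts (−1.09). *Rtn2* (9 and 4 counts), *Reep2* (15 and 0) and *Reep1* (0 and 12) rested on few reads. Of 31 genes of the autophagy core, 3 were higher and 2 lower, with a median of −0.06 (1 and 4 by total counts). *Map1lc3b*, the ATG8 protein most used as an autophagosome marker, had 475 and 307 counts (1.22; 0.62 by total counts), *Pik3c3*, the autophagy lipid kinase, 284 and 139 (1.62), and *Wipi1* 141 and 105 (1.01; 0.41 by total counts). The receptor gene *Nbr1* had 107 and 1204 counts (−2.90, −3.20 to −2.61) and *Atg7* 106 and 339 (−1.08).

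Of 19 kinases and regulators of the MAP kinase route upstream of *Mknk2*, none was past 2-fold higher and 1 was lower, *Nras* (56 and 432 counts, −2.35). Their median was −0.07, and by total counts 4 (21.1%) were lower, against 26.6% of all genes. Of 15 other genes for the cap-binding initiation factors, the substrates and scaffold of MNK2 among them, none was past 2-fold in either direction, with a median of −0.11, and by total counts 3 were lower. *Eif4e*, the substrate, had 31 counts in each library (0.58, −0.17 to 1.36; −0.01 by total counts), and *Eif4g1*, the scaffold, 1298 and 1996 (−0.03). *Eif4a1* had 506 and 1230 counts (−0.69). In the broader KEGG sets of the authors' annotation, without the 4 genes, MAPK signaling had 17 higher and 17 lower of 180 genes, insulin signaling 11 and 5 of 115, HIF-1 signaling 10 and 8 of 86, and the pentose phosphate pathway none of 23 in either direction. In none of the 9 lists of partners and pathways did a median come near the values of *Chp1*, *H6pd*, *Fam134c* or *Mknk2*, and *Lpin1* was the highest of their other genes with reads in both libraries. The highest values in the KEGG sets were 5.45 (MAPK signaling), 4.70 (insulin signaling) and 3.78 (HIF-1 signaling). The MAPK set held 2 genes and the insulin set 1 gene without WT reads, and fitted values of such genes depend on the prior count. With such genes included, the 9 lists reached 5.27 (*Reep2*, 15 and 0 counts).

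**Figure D4:**
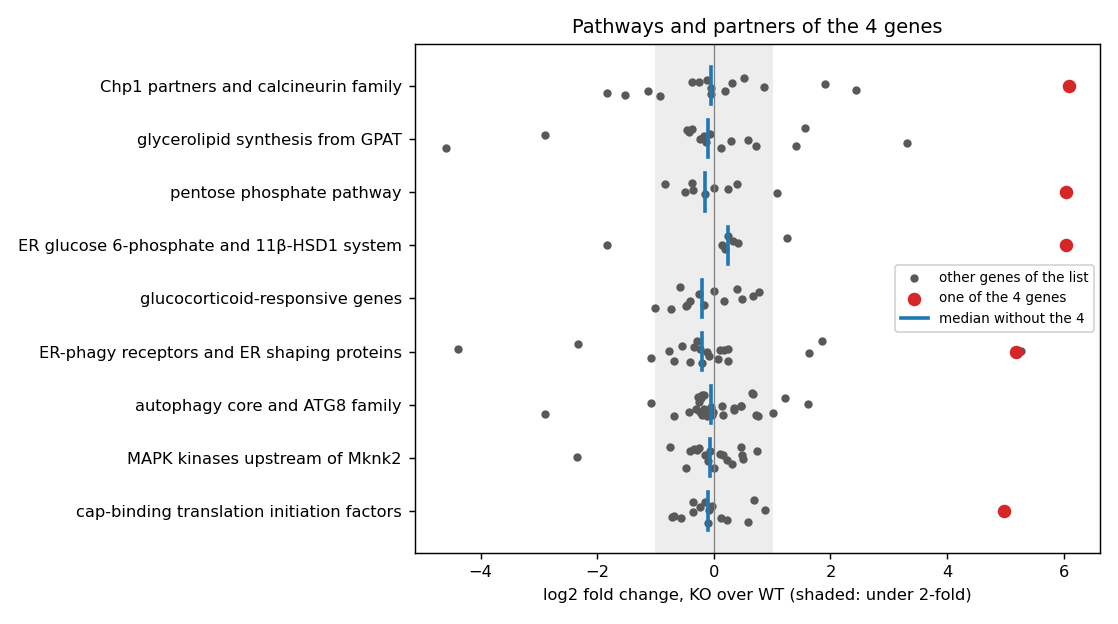
Log2 fold change, KO over WT, of the genes in 9 lists of partners and pathways, a list on each line, with grey dots for list genes, red dots for the 4 genes and blue bars for the median without them. Medians lie between −0.21 and 0.24, inside the shaded band of less than 2-fold, while the red dots lie near 5 and 6. Scaling by total counts lowers most values by about 0.60 and turns the positive median of the ER glucose 6-phosphate list to −0.36. Genes with 0 counts in a library (such as *Reep2*) move by less, and their fitted values depend on the prior count.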

How the data were processed

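Poly(A) RNA-seq of mouse liver was analysed from 1 KO and 1 WT library, grouped by the genotype in the labels. The authors deposited raw read counts per gene and the FPKM they computed from them, scaled by the total count. The submitters' processing notes list HISAT2 2.0.4, StringTie, edgeR and the build hg38, which is a human build, whereas the table holds mouse Ensembl identifiers; 34267 of 34745 are in GENCODE M21 (GRCm38), 80.8% of these with the same coordinates. Whether reads were counted by strand is not given in the sources used here. Strand was taken from GENCODE.

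Counts were scaled by TMM in edgeR 4.0.16 (R 4.3.3) with a prior count of 0.5 and a minimum of 10 counts over both libraries. The other steps used Python 3.11.15, scipy 1.17.1 (intervals), numpy 2.4.6, pandas 2.3.3 (tables) and matplotlib 3.10.9 (figures). DESeq2 1.42.0 size factors, the upper quartile, total counts with and without mitochondrial genes, the authors' FPKM, another prior count and other minimum counts were tried as alternatives. No p-value was computed, as there is 1 library per genotype and the 4 genes were chosen on this contrast. The genes and lists were chosen with earlier results of these data known. Named genes are the 4 genes, every protein-coding gene ranked among them and the 5 just below, up to 5 genes with at least 1000 KO and fewer than 10 WT counts, overlapping and nearest genes, neighbours past 2-fold, and paralogues, partners or list genes past 2-fold. No gene met the third criterion. The 5 with the most KO counts under a lower minimum of 100 were therefore named after their values were seen. Some further list genes within 2-fold were named likewise, to show the main steps of a pathway or the spread of a list. Some genes of the lists are not reported here by name.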

Additional observations from a re-analysis of the deposited data

How the results depend on the processing

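*Chp1*, *H6pd*, *Fam134c* and *Mknk2* were higher in the KO library under all 8 alternatives, with the lowest of the 4 between 3.88 and 4.99 and the highest between 5.28 and 6.11 on the log2 scale. By total counts, *Chp1* was at 5.50, *H6pd* at 5.44 and *Mknk2* at 4.38, with 624 genes past 2-fold upwards and 3605 downwards, so that the share of lower genes among those changed was 85.2% against 51.2% with TMM. With the authors' FPKM and a pseudocount of 0.1, *Chp1* was at 5.14, *H6pd* at 5.28, *Fam134c* at 3.88 and *Mknk2* at 4.21, and 405 genes were higher and 2934 lower. A minimum of 1 count gave 2269 higher and 2763 lower among 16393 genes, and a minimum of 50 counts gave 656 and 730 among 10916, as more or fewer genes were kept. Relative to the median of all genes, *Chp1* was at 6.10 and *Mknk2* at 4.98 by total counts too. The other 33 values of these results moved by less than counting error, or by less than 1.5 times for counts of genes. Across the lists and alternatives, 111 medians moved by less than 0.1 and 39 by more, by total counts, with FPKM or under the minimum of 50 counts. No paired analysis was possible because there is just 1 KO and 1 WT library, with no test. The depth limits *Fam134c* most, with 12 WT counts, and without replicates the spread between mice cannot be told apart from the genotype.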

Other observations

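The cell type markers not described with the 4 genes gave few reads outside the liver's own cells. Endothelial markers summed to 1987 KO and 2894 WT counts, with 2 of 10 genes lower past 2-fold and a median log2 fold change of −0.25. By total counts 4 of the 10 were lower, against 26.6% of all genes. Cholangiocyte markers summed to 2038 and 2348 counts, with 2 of 6 kept genes higher past 2-fold and a median of 0.40 (−0.20 by total counts). Neutrophil markers summed to 383 and 532 counts with *Ly6g* at 0 in both, and lymphocyte markers to 37 and 58 with *Klrb1c* at 0 in both. Erythroid markers summed to 911 and 1310 counts, with a median of −0.59 over 5 kept genes. Of these, *Alas2* was past 2-fold higher (535 and 347 counts, 1.22) and *Hbb-bs* lower (64 and 200 counts, −1.05). By total counts 4 of the 5 were lower and none higher. Muscle markers summed to 25 and 23 counts, with *Acta1*, *Myh1* and *Tnnt3* at 0 in both libraries, and exocrine pancreas markers to 97 and 97 counts, with 5 of 6 genes at 0 in both.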
